A study of Homo sapiens with 2 samples.

Results

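The insulin-like growth factor (IGF) binding protein genes IGFBP2, IGFBP3, IGFBP4, IGFBP5, IGFBP6 and IGFBP7 were examined with the receptor genes IGF1R and IGF2R in a human breast cancer cell line that overexpresses the long non-coding RNA SNHG15. They were taken by symbol, and all 8 were found among the 19029 genes of the table. RNA was sequenced from BT549 cells with the genotype SNHG15 overexpression and from BT549 cells with the genotype vector control, whose library title names the vector pcIp2. Both were grown in DMEM with fetal bovine serum and antibiotics. BT549 is an established line of mesenchymal character, derived from a breast carcinoma without oestrogen and progesterone receptors. Each genotype had 1 library, so differences are given without p-values of their own, and those between the genotypes cannot be told apart from differences between 2 cultures or 2 library preparations. Whether the overexpressing cells were 1 clone or a pool is not stated in the labels.

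The IGF binding proteins are secreted proteins that hold IGF1 and IGF2 outside the cell, lengthen the life of these ligands and control how much of them reaches the receptors. IGF1R is the receptor tyrosine kinase through which both ligands drive growth and survival, whereas IGF2R, also the cation-independent mannose-6-phosphate receptor, takes up IGF2 for degradation and sorts lysosomal enzymes. In breast tumours the binding proteins are known both as brakes on IGF signalling and as factors acting without IGF, IGFBP7 being a low-affinity relative of the others.

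In the SNHG15 library IGFBP6 was 4.08-fold lower and IGFBP4 2.58-fold lower than in the vector library, IGF2R was 1.55-fold higher, and the other binding proteins lay within 1.11-fold. The ligand gene IGF2 was 2.17-fold lower. IGFBP4 was the member with the highest level per kilobase in both libraries. The summed counts of the 6 binding proteins were 980 CPM (counts scaled to library depth) with SNHG15 overexpression and 1841 CPM with vector, 1.88-fold lower (1.84 to 1.91), and without IGFBP4 and IGFBP6 they were 481 CPM with SNHG15 and 448 CPM with vector, a ratio of 1.07 (1.04 to 1.11).

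The SNHG15 library held 16570496 counts and the vector library 20799017, and CPM values were scaled by the trimmed mean of M-values (TMM). Ranges in parentheses are exact 95% intervals of the ratio of the counts and cover counting error only. A gene was called higher or lower where this interval excluded 1 and the ratio reached 1.5-fold. Of the 12934 genes averaging 1 CPM or more, 13.3% were called higher and 12.2% lower, with a median log2 ratio of 0.02. SNHG15 itself was at 1997 CPM with SNHG15 overexpression and 23.3 CPM with vector, and the counts do not separate vector transcripts from those of the genome. Of the markers listed for a mesenchymal breast line, all 5 were measured, and 2 were called higher and 2 lower. VIM was at 1998 CPM with SNHG15 and 1993 CPM with vector, CDH2 was 5.28-fold higher and SPARC 1.78-fold higher, and FN1 was 1.80-fold lower and ZEB1 1.70-fold lower. The epithelial list had 3 of 5 markers at 1 CPM or more, and its 4 markers in the table, CDH1 among them, summed to 729 CPM with SNHG15 overexpression and 1239 CPM with vector, most of it KRT18. The haematopoietic list had 1 of 4 markers measured, CD68 at 3.94 CPM with SNHG15 and 19.4 CPM with vector, and the endothelial list 1 of 4, TEK at 0.174 CPM with SNHG15 and 3.70 CPM with vector. The fibroblast list had 2 of 4 measured, summing to 7.59 CPM with SNHG15 and 12.5 CPM with vector, the hepatocyte list 0 of 4, with APOA1 and SERPINA1, both under 1 CPM, summing to 0.695 CPM with SNHG15 and 0.401 CPM with vector, and ERBB2 was at 161 CPM with SNHG15 and 184 CPM with vector. ESR1, PGR, EPCAM, PTPRC, CD3E, PECAM1, CDH5, VWF, ALB, TTR, DCN and LUM were not analysed here. KRT18, CLDN7, CD68, TEK and PDGFRA were called lower in the SNHG15 library, as were FN1, ZEB1, IGFBP4 and IGFBP6, while CDH2 and SPARC were called higher. Of these markers, CLDN7 had only 2 counts with SNHG15 and 40 with vector, and TEK 3 with SNHG15 and 74 with vector. The part of these markers in the result was not tested. Fewer cells of a type and less RNA per cell cannot be told apart in such samples.

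Of the 8 genes, 1 was called higher (12.5%) and 2 were called lower (25%), and 5 were neither. The shares among all genes compared were 13.3% and 12.2%, so the count higher was near the background, and the count lower rests on 2 genes. By the stricter rule, under which the whole interval lies past 2-fold, 0 of the 8 were higher and the same 2 genes, IGFBP4 and IGFBP6, were lower, where 2.2% and 2.45% of all genes passed. The median log2 ratio of the 8 genes was 0.08.

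**Figure D1:**
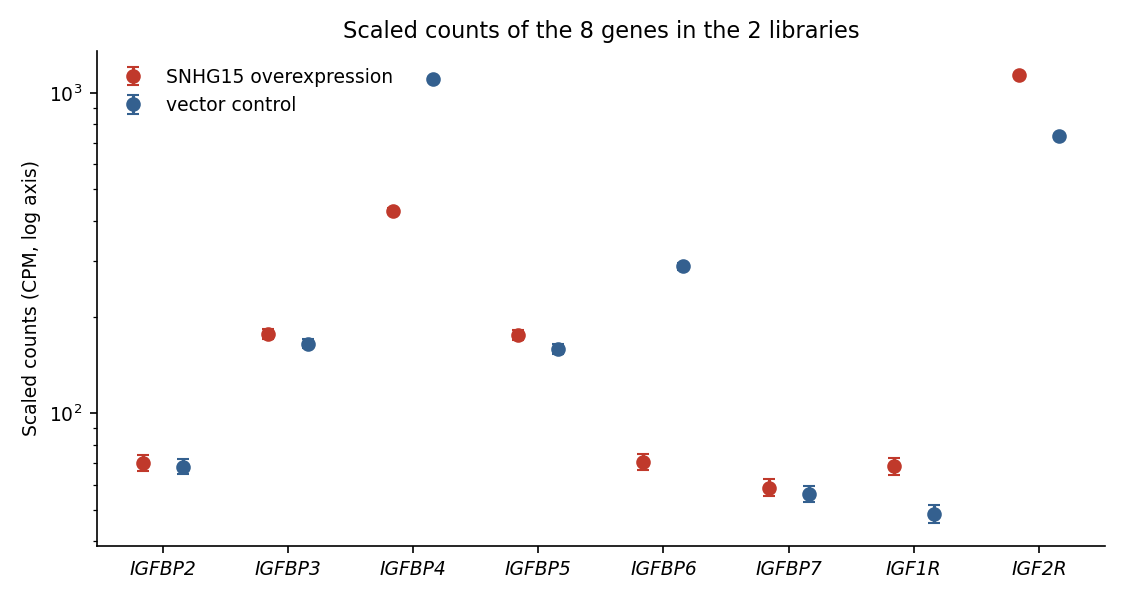
Scaled counts (CPM, log axis) of each of the 8 genes in the SNHG15 overexpression library (red) and the vector control library (blue), 1 library each. Bars are exact Poisson 95% intervals of the count. IGFBP4 (428 CPM with SNHG15 and 1105 CPM with vector) and IGFBP6 (70.5 CPM with SNHG15 and 288 CPM with vector) stand lower in the SNHG15 library, and IGF2R (1137 CPM with SNHG15 and 735 CPM with vector) stands higher.

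IGFBP6, which binds IGF2 in preference to IGF1, had the largest difference of the family. It had 1216 counts with SNHG15 overexpression and 5750 with vector, or 70.5 CPM with SNHG15 and 288 CPM with vector, a 4.08-fold difference (3.84 to 4.35). The gene (ENSG00000167779) lies on the plus strand of chromosome 12 at 53097436 to 53102345 (hg38), and its principal transcript has 4 exons over 1169 bases. Its log2 ratio of −2.03 stood at percentile 0.827 of all genes compared. By the distance of log2 CPM over the 2 libraries, the protein-coding genes most like it were FOSL1, a subunit of the AP-1 transcription factor, at 75.2 CPM with SNHG15 and 283 CPM with vector (distance 0.10), the TGF-beta co-receptor ENG, endoglin, at 63.5 CPM with SNHG15 and 333 CPM with vector (0.26) and SH3BP1 at 83.6 CPM with SNHG15 and 239 CPM with vector (0.37). Likeness over 2 libraries says only that levels and ratios were close.

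IGFBP4, which holds IGF away from its receptor until the protease PAPP-A cuts it, had 7388 counts with SNHG15 overexpression and 22069 with vector. At 428 CPM with SNHG15 against 1105 CPM with vector it was 2.58-fold lower (2.51 to 2.65), at percentile 2.35 of all genes compared. The gene (ENSG00000141753) lies on the plus strand of chromosome 17 at 40443461 to 40457731 (hg38), with 1 annotated transcript of 4 exons over 2200 bases. The ratio of IGFBP4 to IGFBP6 counts needs no scaling, and it was 6.08 with SNHG15 overexpression and 3.84 with vector, so that IGFBP6 differed 1.58-fold more than IGFBP4 (1.48 to 1.69, an approximate interval, as for all such ratios of ratios).

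IGFBP4 and IGFBP6 also share a high content of G and C, which the choice of members did not use. Their transcripts are 62.5% and 64.1% GC, above 91.4% and 94.8% of the genes compared and the highest of the 8. Among the 1112 genes at least as GC-rich as IGFBP4, 26.3% were called lower and 6.92% higher, with a median log2 ratio of −0.32. With the trend of ratio on GC content removed, IGFBP6 was 3.19-fold lower and IGFBP4 2.06-fold lower, and both were still called. Of those GC-rich genes, 3.69% had a log2 ratio at or below that of IGFBP4 and 0.719% at or below that of IGFBP6. Whether GC content had a part in these ratios was not tested.

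The sequence before the RefSeq start of the 2 lower genes is shown because they were lower together. The windows are the 250 bases before the start on GRCh38.p14, plus strand, at chr17:40443200-40443449 for IGFBP4 and chr12:53097417-53097666 for IGFBP6. Capitals mark matches on either strand. The GC box was searched as GGGCGG and the TATA box was searched as TATAAA. The E box was searched as CACGTG, and for an AP-1 site the letters were TGANTCA.
IGFBP4: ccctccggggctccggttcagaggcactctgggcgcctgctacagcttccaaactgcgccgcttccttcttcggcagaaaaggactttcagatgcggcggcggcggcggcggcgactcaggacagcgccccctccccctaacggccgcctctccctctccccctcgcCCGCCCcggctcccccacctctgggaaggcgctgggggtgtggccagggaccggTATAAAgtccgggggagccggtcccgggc
IGFBP6: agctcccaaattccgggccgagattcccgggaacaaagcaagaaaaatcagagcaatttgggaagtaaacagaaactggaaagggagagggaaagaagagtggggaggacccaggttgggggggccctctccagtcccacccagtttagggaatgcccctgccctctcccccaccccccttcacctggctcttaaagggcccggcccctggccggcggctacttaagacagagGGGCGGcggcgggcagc
The IGFBP4 window held 1 GC box, reading as its reverse complement, and 1 TATA box, and was 71.6% GC with 24 CpG dinucleotides. The IGFBP6 window held 1 GC box near its end, and was 61.2% GC with 9 CpG. Of 35116 windows of this length, 42.6% held a GC box, 10.7% a TATA box and 6.57% an AP-1 site, with a median of 58% GC and 11 CpG. The start used for IGFBP6 lies inside the gene span of the table. Entries were found for 7 of the 8 genes.

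IGFBP2, IGFBP3, IGFBP5 and IGFBP7 had nearly the same ratio, and none was called. IGFBP3 (ENSG00000146674, chromosome 7, minus strand, 45912245 to 45921874, hg38), the main IGF carrier of serum, had 3046 counts with SNHG15 overexpression and 3297 with vector, or 177 CPM with SNHG15 and 165 CPM with vector, a ratio of 1.07 (1.02 to 1.12). IGFBP5 (ENSG00000115461, chromosome 2, minus strand, 216672105 to 216695525), which attaches to extracellular matrix, had 3034 counts with SNHG15 and 3167 with vector, or 176 CPM with SNHG15 and 159 CPM with vector, a ratio of 1.11 (1.05 to 1.17). Both intervals exclude 1, with log2 ratios of 0.10 and 0.15, beside a shift of 0.12 in the median of all genes when library totals replace TMM.

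IGFBP2 (ENSG00000115457, chromosome 2, plus strand, 216632828 to 216664436), which carries an integrin-binding motif, had 1211 counts with SNHG15 overexpression and 1364 with vector, at 70.2 CPM with SNHG15 and 68.3 CPM with vector, a ratio of 1.03 (0.9505 to 1.11). IGFBP7 (ENSG00000163453, chromosome 4, minus strand, 57030773 to 57110385), found in the basement membrane of vessels, had 1013 counts with SNHG15 and 1122 with vector, at 58.7 CPM with SNHG15 and 56.2 CPM with vector, a ratio of 1.05 (0.959 to 1.14). IGFBP7 overlaps POLR2B on the opposite strand, and no source states whether reads were counted by strand. For these genes a 1.5-fold difference lay outside the counting interval, though the spread between cultures is unknown.

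Because the ratio of 2 members within a library does not depend on scaling, all 28 pairs of the 8 genes were also compared directly. The interval of the ratio of ratios excluded 1 in 22 pairs. It included 1 in all 6 pairs among IGFBP2, IGFBP3, IGFBP5 and IGFBP7, the widest gap being that of IGFBP2 and IGFBP5 (0.927, 0.845 to 1.02). The pairs restate the ratios of the 8 genes without scaling, and these genes were grouped by their ratios in the same counts. Pairs of other genes were not compared, so these counts of pairs have no background. Relative to IGFBP3, IGFBP4 counts were 2.76-fold lower (2.61 to 2.92) and IGFBP6 counts 4.37-fold lower (4.04 to 4.73) in the SNHG15 library than in the vector library.

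**Figure D2:**
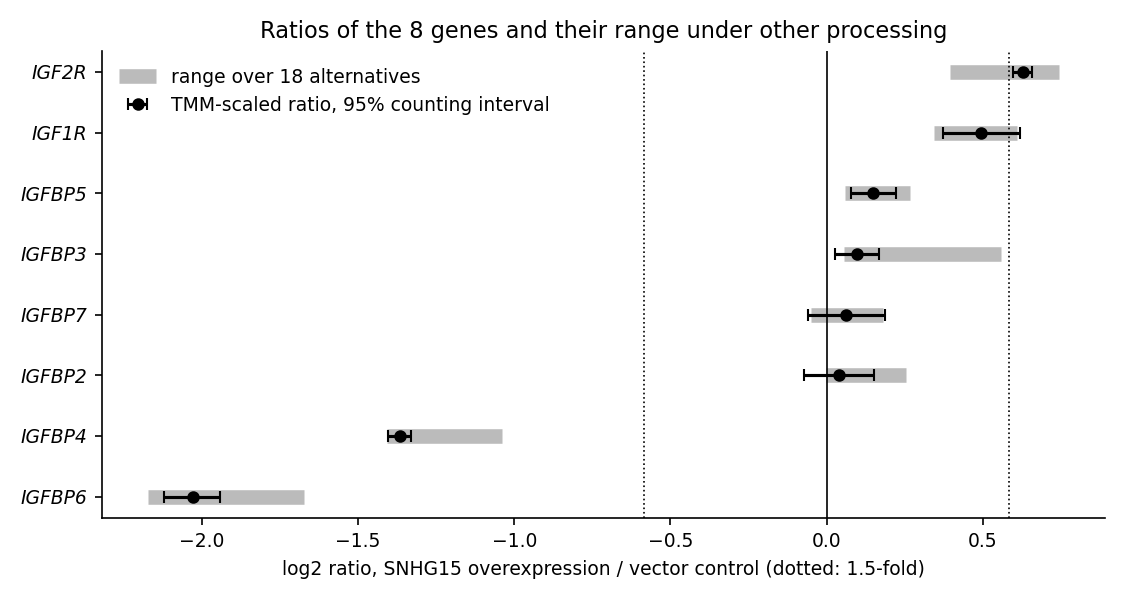
Log2 ratio of the SNHG15 overexpression library over the vector control library for each gene (points) with the 95% counting interval (black bars) and the range over 18 other ways of processing (grey). Dotted lines mark 1.5-fold. IGFBP6 and IGFBP4 lie beyond the lower line under every alternative, while IGF2R and IGF1R lie on both sides of the upper line.

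Among the receptors, IGF2R had 19610 counts with SNHG15 overexpression and 14687 with vector. At 1137 CPM with SNHG15 against 735 CPM with vector it was 1.55-fold higher (1.51 to 1.58), just past the 1.5-fold limit, with a log2 ratio at percentile 87.7 of all genes compared. The call was lost when the trend on transcript length was removed or when ratios were centred on the 40 nearest genes (log2 ratio 0.40 in the second case, 0.63 as reported). IGF2R (ENSG00000197081, chromosome 6, plus strand, 159969099 to 160113507, hg38) has a principal transcript of 48 exons and 14044 bases. It overlaps the gene model AL353625.1 of the same strand, which had 46 counts with SNHG15 and 36 with vector. The protein-coding genes most like it in both libraries were the ribosomal protein gene RPS4X at 1081 CPM with SNHG15 and 739 CPM with vector (distance 0.07), the fatty acid desaturase FADS2 at 1066 CPM with SNHG15 and 740.4 CPM with vector (0.09) and the ribosomal scaffold RACK1 at 1076 CPM with SNHG15 and 778 CPM with vector (0.11).

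IGF1R (ENSG00000140443, chromosome 15, plus strand, 98648971 to 98964530, hg38) had 1179 counts with SNHG15 overexpression and 968 with vector. At 68.3 CPM with SNHG15 against 48.5 CPM with vector its ratio was 1.41 (1.29 to 1.54), short of 1.5-fold, and it was called higher only by scaling to library totals (log2 ratio 0.61) and by FPKM (fragments per kilobase, scaled to depth) with a pseudocount of 0.1. Relative to IGF2R it differed by a factor of 0.912 (0.836 to 0.996). That approximate interval lay just under 1 and covers counting error only. In these 2 libraries the excess of IGF1R was slightly smaller than that of IGF2R, with the spread between cultures unknown.

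The window before the IGF2R start is shown for its repeated motif matches. It spans chr6:159968832-159969081 on GRCh38.p14, plus strand, with capitals as above.
IGF2R: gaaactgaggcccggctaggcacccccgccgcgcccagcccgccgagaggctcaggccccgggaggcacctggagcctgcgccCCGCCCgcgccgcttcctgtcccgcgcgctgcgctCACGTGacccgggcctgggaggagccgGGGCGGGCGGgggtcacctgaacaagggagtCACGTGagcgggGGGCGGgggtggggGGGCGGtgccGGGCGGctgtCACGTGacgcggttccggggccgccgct
It held 3 E boxes and 6 GC boxes and was 79.2% GC with 33 CpG. An E box was found in 6.34% of all windows, and 3 or more in 28 of 35116 (0.0797%), while 6 or more GC boxes were found in 2.22%. Overlapping GC boxes were counted separately. The window was picked from those of the members for these matches, so the shares are no test. Its GC content stood at percentile 95.8 of all windows, and windows of like GC content were not counted apart. A match is a string of letters and does not show binding.

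Levels of different genes were compared per length, first by the deposited FPKM. In the SNHG15 library the order was IGFBP4 at 203 FPKM, IGF2R at 74.7, IGFBP7 at 29.7, IGFBP6 at 26.0, IGFBP5 at 24.5, IGFBP3 at 17.9, IGFBP2 at 9.98 and IGF1R at 2.89. In the vector library it was IGFBP4 at 482 FPKM, IGFBP6 at 97.8, IGF2R at 44.6, IGFBP7 at 26.2, IGFBP5 at 20.3, IGFBP3 at 15.4, IGFBP2 at 8.95 and IGF1R at 1.89. IGFBP6 thus held rank 4 with SNHG15 overexpression and rank 2 with vector. Neighbours in these orders differed beyond their counting intervals, except for IGFBP6 and IGFBP5 in the SNHG15 library.

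The length behind the deposited FPKM of IGFBP3 was 10288 bases, 4.55 times its principal transcript of 2262 bases, and for IGFBP2 it was 5.09 times. For IGFBP4, with a single transcript, it was the transcript length. The length behind FPKM equalled the sum of all distinct annotated exons, overlapping ones added up, to within 0.1% for 87.5% of 17973 genes, and the merged exon length for 21.9%. It did not do so for 3 of the 8 genes, at 2827 bases against an exon sum of 3222 for IGFBP6, 24617 against 25753 for IGF1R and 15844 against 23101 for IGF2R. Length cancels in ratios between the libraries, but it moves the order of genes within one.

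Levels were therefore also set per kilobase of principal transcript, a scale chosen after seeing the data. In CPM per kilobase, the SNHG15 library had IGFBP4 at 195 (190.2 to 199), IGF2R at 80.9 (79.8 to 82.1), IGFBP3 at 78.0 (75.3 to 80.9), IGFBP6 at 60.3, IGFBP2 at 48.8, IGFBP7 at 41.1, IGFBP5 at 28.3 and IGF1R at 5.58. The vector library had IGFBP4 at 502 (496 to 509), IGFBP6 at 246 (240 to 253), IGFBP3 at 73.0, IGF2R at 52.4, IGFBP2 at 47.5, IGFBP7 at 39.4, IGFBP5 at 25.5 and IGF1R at 3.96. On this scale IGF2R and IGFBP3 in the SNHG15 library were the neighbours whose intervals overlapped. IGFBP4 first, IGF1R last and the ranks of IGFBP6 were alike on both scales, while IGFBP3 stood at rank 3 on this one and rank 6 by FPKM in both libraries.

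Per kilobase of principal transcript, the 6 binding proteins summed to 451 with SNHG15 overexpression and 934 with vector. IGFBP4 made up 43.1% of this sum with SNHG15 overexpression and 53.8% with vector, and IGFBP6 made up 13.4% with SNHG15 and 26.4% with vector. The shares of the others were larger in the SNHG15 library, with IGFBP3 at 17.3% with SNHG15 against 7.81% with vector, IGFBP2 at 10.8% with SNHG15 against 5.08% with vector, IGFBP7 at 9.12% with SNHG15 against 4.22% with vector and IGFBP5 at 6.27% with SNHG15 against 2.73% with vector. IGFBP3 was thus the second most abundant binding protein message in the SNHG15 library, and IGFBP6 in the vector library, on this scale. The larger shares of IGFBP2, IGFBP3, IGFBP5 and IGFBP7 followed from the smaller sum, as none of these genes was called. IGFBP3 itself was at 78.0 with SNHG15 and 73.0 with vector. By FPKM, IGFBP4 made up 65.2% with SNHG15 against 74.1% with vector, and IGFBP6 8.36% with SNHG15 against 15.02% with vector.

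**Figure D3:**
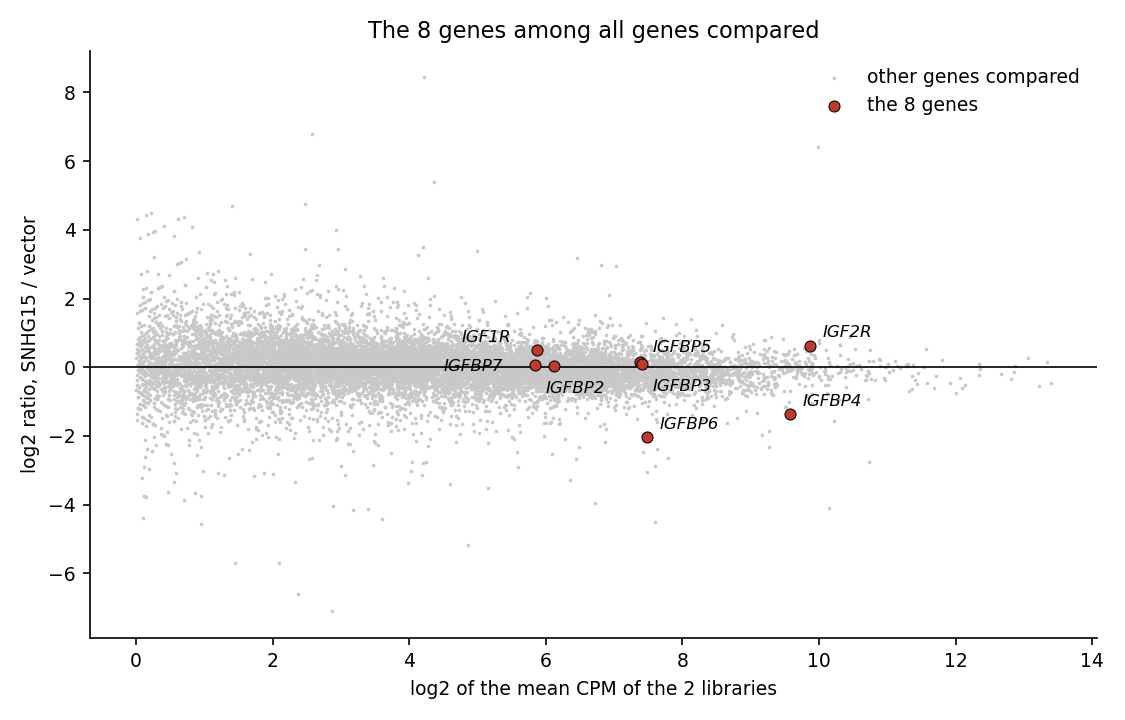
Log2 ratio (SNHG15 overexpression over vector control) against the log2 of the mean CPM of the 2 libraries for the 12934 genes compared (grey), with the 8 genes in red. IGFBP6 and IGFBP4 lie below most genes of their level, and IGFBP2, IGFBP3, IGFBP5 and IGFBP7 lie near 0.

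The position of the genes was examined because IGFBP3 and its neighbour IGFBP1 lie near SNHG15 on chromosome 7. The start sites of IGFBP3 and SNHG15 are 935 kb apart. IGFBP3 had a log2 ratio of 0.10, while the median of the 40 nearest genes was −0.46 and that of the 602 genes of chromosome 7 was −0.27. Within 1 Mb of IGFBP3, the lower genes were TBRG4 (1.83-fold) and CCM2 (1.72-fold). The higher ones were the overexpressed gene SNHG15 and the pseudogene SEPTIN7P2, the latter at 40 counts with SNHG15 and 16 with vector. Counts of SNHG15 do not separate vector transcripts from those of this locus. Relative to the median of the 40 nearest genes, IGFBP3 was higher by 0.56 on the log2 scale. IGFBP1, whose start is 33.5 kb from that of IGFBP3, was low, at 14 counts with SNHG15 overexpression and 30 with vector (ratio 0.540, 0.265 to 1.05).

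IGFBP2 and IGFBP5 lie tail to tail on chromosome 2 with 7.67 kb between them, and their ratios of 1.03 and 1.11 did not differ beyond counting error. Within 1 Mb of IGFBP6, 6 of 42 genes were higher and 4 lower, with a median log2 ratio of 0.20. Among all genes compared 13.3% were higher and 12.2% lower, so these counts were near the background. Its nearest neighbour SPRYD3 was 1.59-fold lower, and the epithelial keratin KRT18 was 1.71-fold lower. Other lower neighbours were AC068888.1 and MYG1-AS1, while EIF4B, KRT80, KRT81, CSAD, HOXC10 and HOXC11 were higher. AC068888.1 had 17 counts with SNHG15 and 36 with vector, and CSAD 44 counts with SNHG15 and 30 with vector. The intervals of both only just excluded 1.

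Within 1 Mb of IGFBP4, 2 of 28 genes were higher and 5 lower, with a median of −0.21, beside 13.3% higher and 12.2% lower among all genes compared. WIPF2, a regulator of actin assembly, was 2.90-fold lower, CSF3, the granulocyte growth factor, 1.91-fold, the thyroid hormone receptor THRA 1.71-fold, GRB7 2.05-fold and RARA-AS1 1.58-fold. GRB7 had few counts, 16 with SNHG15 and 38 with vector. The nearest gene, TOP2A, was at a ratio of 1.25 and was not called, while TCAP and SMARCE1 were higher at 33 counts and 34 counts with SNHG15, against 8 counts and 19 counts with vector. Relative to the 40 nearest genes, IGFBP4 was lower by a log2 ratio of −1.20 and IGFBP6 by −2.17. No gene within 1 Mb of IGF2R (8 genes) or IGF1R (3 genes) was called.

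**Figure D4:**
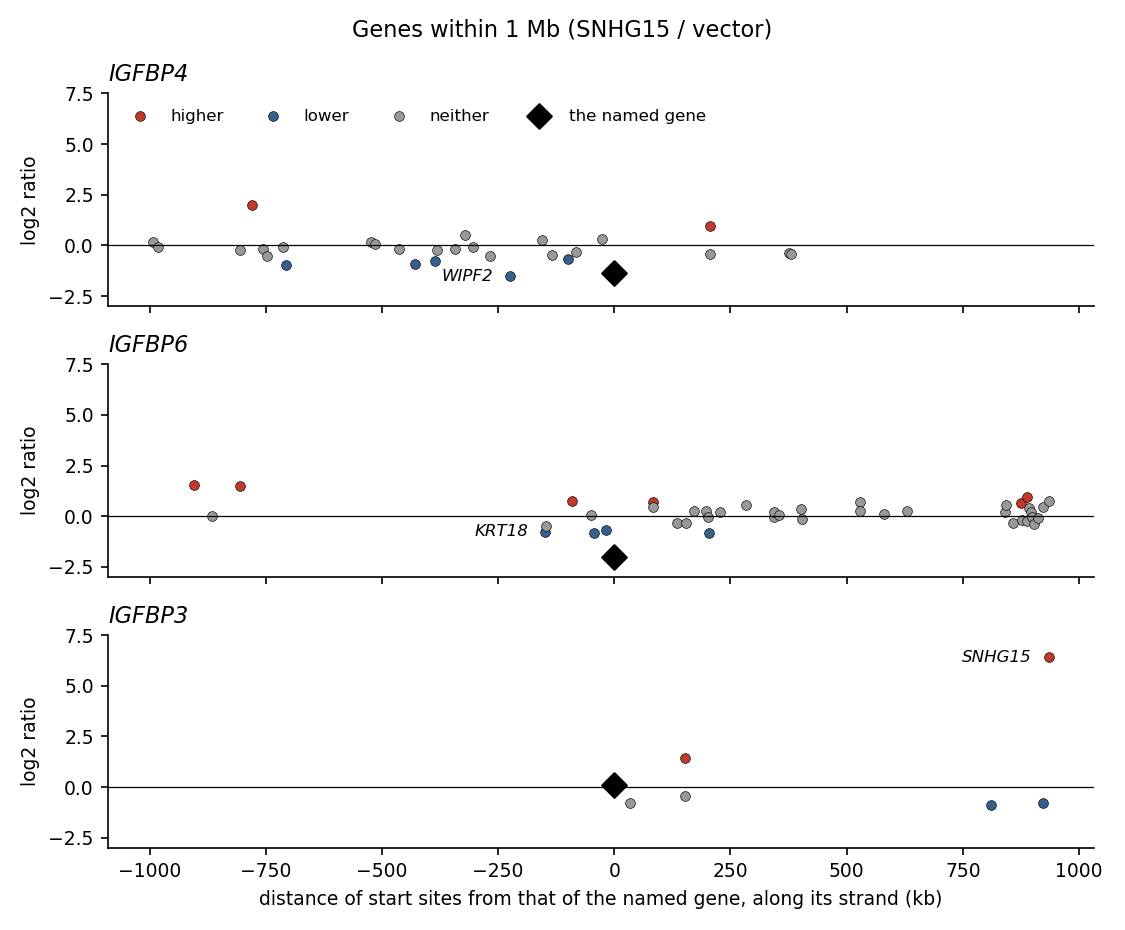
Log2 ratios (SNHG15 overexpression over vector control) of genes compared within 1 Mb of IGFBP4, IGFBP6 and IGFBP3 against the distance of their start sites in kb along the strand of the named gene (black diamond). Red points were called higher, blue lower and grey neither. IGFBP6 lies below all of its neighbours shown and IGFBP4 below all but WIPF2, and IGFBP3 lies above TBRG4 and CCM2. The point at 935 kb is SNHG15, the overexpressed gene, whose counts may include vector transcripts.

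The surrounding IGF pathway was described through lists of genes by role. Over all lists, 98 of 122 genes were compared, and 11 were higher and 16 lower (11.2% and 16.3%, against 13.3% and 12.2% of all genes), with a median log2 ratio of −0.06. Among ligands and circulating partners, IGF2 had 96 counts with SNHG15 overexpression and 241 with vector, or 5.56 CPM with SNHG15 and 12.1 CPM with vector, and was 2.17-fold lower (1.70 to 2.78). It was not called by FPKM with a pseudocount of 1 (log2 ratio −0.45), and its antisense partner IGF2-AS had 0 counts with SNHG15 and 2 counts with vector. IGF1, INS and IGFALS were not analysed here, and IGFBPL1, at 8 counts in each library, was under 1 CPM. The insulin receptor gene INSR was at 10.5 CPM with SNHG15 and 10.6 CPM with vector, a ratio of 0.993 (0.810 to 1.22).

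Of the relatives that carry an IGFBP domain, 1 of 6 was higher and 0 were lower, with a median of −0.07. This is 16.7% and 0%, beside 13.3% and 12.2% of all genes compared. At 121 counts with SNHG15 against 60 with vector, KAZALD1 had a ratio of 2.33 (1.70 to 3.24). The matricellular genes CCN1 and CCN2, at 482 CPM and 245 CPM in the SNHG15 library and 544 CPM and 208 CPM in the vector library, were not called. CCN4 had 0 counts with SNHG15 overexpression and 38 with vector, and the interval of its ratio reached up to 0.118, while CCN5 had 20 counts with SNHG15 and 4 with vector, both with a mean under 1 CPM.

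Of the proteases that cut IGF binding proteins and their inhibitors, 2 of 17 were higher and 5 lower, with a median of −0.36. These shares were 11.8% and 29.4%, against 13.3% and 12.2% of all genes compared. PAPPA, the protease of IGFBP4, was not called, at 42.4 CPM with SNHG15 and 54.5 CPM with vector (ratio 0.779, 0.708 to 0.856), nor were its inhibitors STC1 (ratio 0.977) and STC2 (0.824). Of the complement proteases, C1R had a ratio of 2.47 (2.27 to 2.69) and C1S one of 1.97 (1.67 to 2.33). The urokinase PLAU was 1.98-fold lower (1.90 to 2.06), the gelatinase MMP2 1.79-fold (1.73 to 1.86) and the collagenase MMP1 2.04-fold (1.45 to 2.90).

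Of the reported binding partners of these proteins, 1 of 13 was higher and 5 were lower, with a median of −0.23. As shares, 7.69% were higher and 38.5% lower, against 13.3% and 12.2% of all genes compared. The fibronectin receptor chain ITGA5, whose dimer with ITGB1 IGFBP2 can bind, was 2.22-fold lower (2.16 to 2.27), at 452 CPM with SNHG15 against 1001 CPM with vector, whereas ITGB1 was at a ratio of 1.32. Caveolin, CAV1, was 1.93-fold lower (1.86 to 2.01) and the phosphatase PTPRB 3.17-fold lower (1.93 to 5.40), at 21 counts with SNHG15 against 77 with vector. The WNT co-receptor LRP6 was 2.36-fold higher (1.87 to 2.98), but was not called by FPKM with a pseudocount of 1 (log2 ratio 0.49). The IGFBP3 receptor TMEM219 was at a ratio of 0.701 and the endocytic receptor LRP1 at 1.18, and neither was called.

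Downstream of the receptors, 3 of 27 adaptor and PI3K-AKT-mTOR genes were higher and 0 lower, with a median of 0.02. The share higher was 11.1%, while 13.3% of all genes compared were higher and 12.2% lower. The regulatory PI3K subunit PIK3R3, with 1051 counts with SNHG15 and 317 with vector, had a ratio of 3.84 (3.38 to 4.37), and the kinase PDPK1, which activates AKT, one of 3.20 (2.67 to 3.86). PDPK1 has a near-identical copy elsewhere on its chromosome, so the division of its reads is uncertain. The RAS exchange factor SOS2 was 1.75-fold higher (1.26 to 2.43). The docking proteins IRS1 and IRS2 were at ratios of 1.03 and 1.26.

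In the RAS-ERK cascade 0 of 9 genes were called in either direction, among them MAP2K2 (ratio 0.951) and MAPK3 (0.693). This count depended on the scaling, as 1 gene was lower with DESeq2 size factors and 1 was higher by library totals. Of FOXO factors and genes they regulate, 2 of 8 were higher and 1 lower, with a median of 0.40. That is 25% and 12.5%, against 13.3% and 12.2% of all genes compared. With a minimum of 5 CPM, 1 was higher and 0 lower, with a median of 0.23. CCNG2, a cyclin that restrains division, was 2.39-fold higher (1.99 to 2.87) and FOXO4 2.15-fold (1.51 to 3.10), while TXNIP, an inhibitor of thioredoxin, was 1.89-fold lower (1.30 to 2.78). Of these, TXNIP had 43 counts with SNHG15 against 94 with vector.

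Of the genes that work with IGF2R in mannose-6-phosphate sorting, 2 of 12 were higher and 3 lower, with a median of −0.10. Their shares were 16.7% and 25%, against 13.3% and 12.2% of all genes compared. The sorting receptor SORT1 was 1.90-fold higher (1.65 to 2.18) and GNPTAB, which starts the mannose-6-phosphate tag, 2.002-fold (1.49 to 2.70). NAGPA, which uncovers the tag, was 1.66-fold lower (1.45 to 1.89), and the adaptors AP1M1 and GGA1 were 1.67-fold (1.59 to 1.75) and 1.62-fold (1.497 to 1.75) lower. The smaller mannose-6-phosphate receptor M6PR was at a ratio of 1.05 (0.972 to 1.14). Among the IGF2 mRNA-binding proteins and their regulators, 3 of 5 were compared, and HMGA2 was 2.07-fold lower (1.52 to 2.85) while IGF2BP2 was at a ratio of 1.35. Other listed genes with a mean under 1 CPM were PAPPA2, ADAM28, CD93, GRB14, SESN3, IGF2BP1, PTPRZ1, PDK4 and FOXO6. PDK4, a FOXO-regulated kinase gene, had 4 counts with SNHG15 and 33 with vector, 7.13-fold lower (2.53 to 27.7). FOXO6 had 8 counts with SNHG15 and 0 counts with vector, with an interval of the ratio from 1.98 upwards. PTPRZ1 had 0 counts with SNHG15 and 5 counts with vector, with an interval of the ratio that included 1.

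**Figure D5:**
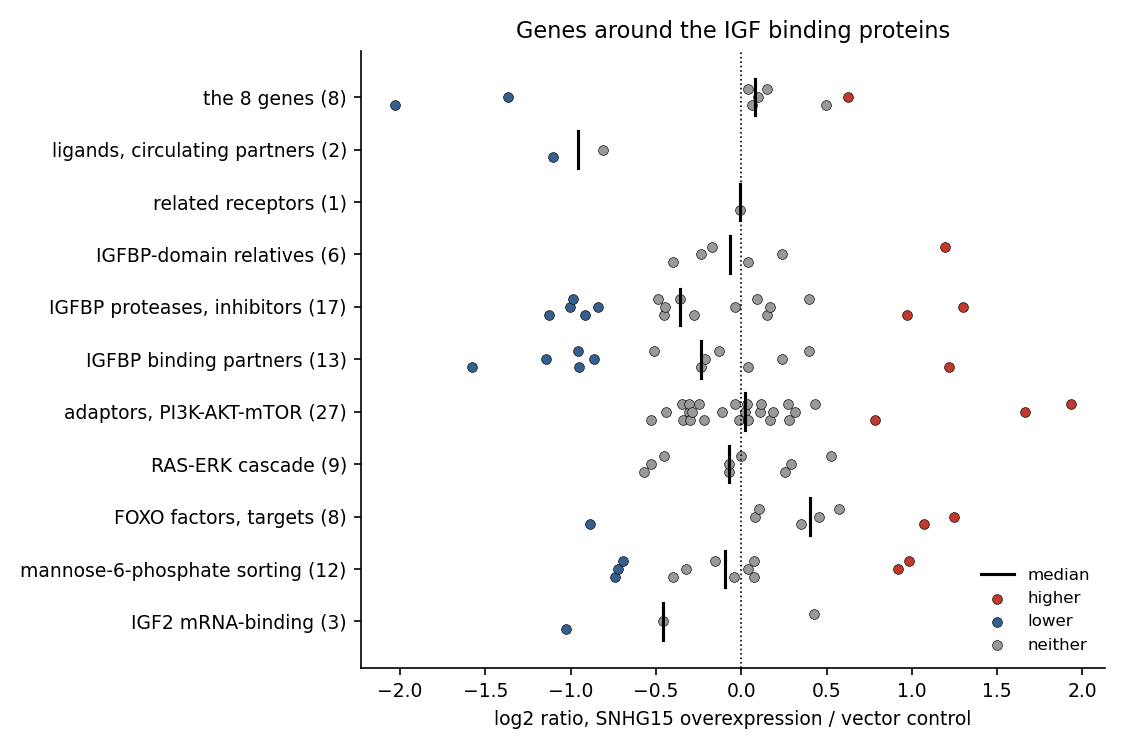
Log2 ratios (SNHG15 overexpression over vector control) of the 8 genes and of the genes compared in each pathway list, with the number compared in parentheses. Each point is a gene, red where called higher, blue where called lower and grey where neither, and black bars are medians. Lower calls are most numerous among the proteases (5 of 17) and binding partners (5 of 13), and the adaptor list of 27 holds 0. Of all genes compared, 12.2% were called lower.

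In the authors' deposited table IGFBP6, IGFBP4 and IGF2 were called lower, the first at a log2 ratio of FPKM of −1.91 and the second at −1.25. That table called 4.88% of its genes higher and 3.27% lower. IGF2R had a log2 ratio of 0.74 and an adjusted p-value of 0.0206 in the authors' deposited table, and IGF1R 0.61 and 0.105, and neither was called. With 1 library per group the variation behind those p-values was not estimated from replicates. The authors' log2 ratios lay close to those by library totals, which use no TMM factors, at 0.74 for IGF2R and 0.61 for IGF1R. They come from the same 2 libraries and are no separate estimate.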

How the data were processed

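RNA of 2 cultures was sequenced, 1 library per genotype. The authors deposited counts (whole reads per gene), FPKM, a log2 ratio of FPKM, and p-values with adjusted p-values from edgeR, per the file headers and the name of the table. Per the submitters' processing notes, reads were placed on hg38. Aligner, counter, annotation release and strand handling are not given in the sources used here. Deposited subsets of called genes repeat rows of the full table and stayed out.

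Scaling used TMM factors (edgeR 4.0.16, R 4.3.3), 1.04 for SNHG15 overexpression and 0.960 for vector control. Intervals of ratios are exact conditional-binomial (Clopper-Pearson) ones. Intervals of the ratio of ratios use a normal approximation on the log scale. Reads are not independent molecules. A count of 0 allows up to 3 counts, which is 0.174 CPM with SNHG15 overexpression and 0.1502 CPM with vector. A prior count of 2 entered each log2 ratio. Genes compared had a median of 284 counts with SNHG15 overexpression and 315 with vector. Biotype, transcript length and GC came from GENCODE 29 (GRCh38), matching 18903 of 19029 genes. Levels per kilobase of principal transcript were added after seeing the data, beside the planned order by FPKM. Trends were removed by loess (span 0.5). Promoter sequences are RefSeq's on GRCh38.p14, and protein sequences were not used here. The functions were tested on simulated data.

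The members and lists were chosen with earlier results of these data known. Named pathway genes were, per list and direction, up to 3 called genes whose nearer interval bound lay farthest from 1, or the 2 most abundant by FPKM where none was called, with the ligand list and genes under the filter; 1 further gene of the rule is not reported here. Named neighbours were those called within 1 Mb of a called member. Other genes (STC1, STC2, PAPPA, TMEM219, LRP1, ITGB1, IRS1, IRS2, M6PR, IGF2BP2, CCN1, CCN2, the neighbours of IGFBP3, and TOP2A) were added after their values were seen.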

Additional observations from a re-analysis of the deposited data

How the results depend on the processing

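Ratios were recomputed under 18 alternatives, of which 2 were chosen after seeing the data. IGFBP4 and IGFBP6 were called lower under all 16 that keep the rule for a call, with log2 ratios from −1.41 to −1.04 and from −2.17 to −1.67. IGFBP2, IGFBP3, IGFBP5 and IGFBP7 were not called under any of them, IGFBP3 reaching 0.56 with centring on the 40 nearest genes. The count of genes called higher was 2 by library totals and by FPKM with a pseudocount of 0.1, which added IGF1R. It was 0 with the length trend removed, with centring on the 40 nearest genes, with GC trend and nearest genes removed together, and where the whole interval had to lie past 2-fold. The median log2 ratio of the 8 genes was 0.20 by library totals, 0.18 with the GC trend removed, 0.22 with centring on the nearest genes, 0.23 with both, 0.19 by FPKM with a pseudocount of 1 and 0.20 with 0.1. Members called lower numbered 2 throughout. Over the pathway lists, FPKM with a pseudocount of 1 gave 6 higher and 6 lower, the rule of a whole interval past 2-fold gave 3 and 1, and a minimum of 5 CPM gave 10 lower, as fewer genes were compared. IGF2 lost its call by FPKM with a pseudocount of 1 (log2 ratio −0.45), as did LRP6 (0.49). IGF2 was at 0.586 FPKM with SNHG15 and 1.17 with vector, and LRP6 at 0.884 and 0.346. A pseudocount of this size draws such ratios towards 1 by construction. The deposited FPKM are scaled to library totals, without TMM factors. Causes of the other moves were not tested except where fewer genes entered. Ranking levels by the principal transcript in place of the length behind FPKM moved 4 of the 8 ranks with SNHG15 overexpression and 5 with vector. No paired analysis was possible because each group has 1 library. For the same reason no library could be left out. With 1 library per group, depth sets the counting intervals, which are no measure of the spread between cultures.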
